A study of Mus musculus with 4 samples.

Results

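The 4 homeobox genes of the HoxA cluster, *Hoxa5*, *Hoxa7*, *Hoxa9* and *Hoxa10*, and the gene of their DNA-binding partner *Meis1* were 5 of the 18695 genes counted in single mouse bone marrow cells. The 5 were picked with earlier results from the same counts known, in which *Hoxa7* and *Hoxa9* had some of the lowest ratios of *Tet2* KO over WT, so every ratio of genotypes below is a description and none was tested. Each gene was followed from stem and early progenitor cells through granulocyte-monocyte progenitors (GMPs) biased to monocytes or to neutrophils and on to mature cells, with WT and *Tet2* KO cells kept apart.

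Hox proteins are transcription factors that bind DNA through a homeodomain, and the genes of a cluster lie side by side on the chromosome. *Hoxa9* and *Meis1* are known for high RNA levels in haematopoietic stem and early progenitor cells, for a decline as myeloid cells mature, and for driving acute myeloid leukaemia when both stay on. Trithorax-type complexes around Kmt2a keep the locus active and Polycomb complexes keep it silent, while Tet2 is an enzyme that oxidizes methylated cytosine in DNA.

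The data were 4 libraries of single-cell RNA sequencing, 1 per genotype and sort, and the deposited table of cells names 1 mouse per genotype, which gave both sorts. *Tet2* KO cells came from Mx1-Cre *Tet2* fl/fl mice and WT cells from Cre-negative *Tet2* fl/fl mice. Both genotypes carried the floxed alleles and had received 4 intraperitoneal doses of 12.5 ug/g of pI:pC, which switches on Mx1-Cre, and the methods give an age of 8 to 12 weeks. Mx1-Cre answers to interferon and is not limited to blood cells. The GMP sort took Lin- cKit+ Sca1- CD34+ CD16/32+ cells, and the Lin-/CD11b+ sort held Lin- progenitors together with CD11b+ myeloid cells. A difference between genotypes cannot be told apart from a difference between these mice or between preparations, and all intervals given are 95% intervals for counting error only.

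The libraries held 1258 to 3068 cells and 22681380 to 42561110 UMIs (unique molecular identifiers, each marking 1 captured RNA molecule), with a median of 10417 to 18713 UMIs per cell. Pairs of libraries shared 4 to 8 cell barcodes. *Tet2* RNA itself was at 13 CPM (UMIs per 1000000) in the WT and 17 in the *Tet2* KO GMP library, and at 13.4 and 20.7 CPM in the WT and *Tet2* KO Lin-/CD11b+ libraries. Counts taken near the 3′ end, outside the floxed part, do not check the deletion. The cell numbers that the study lists for the *Tet2* KO GMP and WT Lin-/CD11b+ libraries stand the other way round from the deposited table of cells, which was followed here. Of plasma cell-like and lymphoid-like cells 0 lay in either library labelled GMP. Plasma cell markers summed to 18.1 and 24.6 CPM in the HSPC-like cells of the WT and *Tet2* KO GMP libraries and to 608 and 515 CPM in those of the WT and *Tet2* KO Lin-/CD11b+ libraries, and the part of such free RNA in the shares below was not tested.

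On the mm10 assembly all 5 genes lie on the minus strand. *Hoxa5* spans chr6:52201754-52204587, *Hoxa7* chr6:52214491-52221854, *Hoxa9* chr6:52223100-52231089, *Hoxa10* chr6:52231197-52240854 and *Meis1* chr11:18879817-19018985 in the GENCODE annotation. In its exons *Hoxa7* shares 586 bases, 20.4% of its exon length, with the antisense gene *Hoxaas3*, which had 285 UMIs of its own over all libraries. The sources used here do not say whether strand was used in counting, so reads in those bases cannot be assigned with certainty. The same holds for *Meis1*, which shares 896 exon bases with the antisense gene *Gm16140*. *Meis1* also shares 1029 exon bases with *Gm37818* on the same strand, where strand could not separate the reads.

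The promoters of the 3 members with most UMIs are shown, and CG pairs, the sites where cytosine is methylated, are in capitals. Each is 300 bases long, from 250 before to 50 after the RefSeq start, on the minus strand of GRCm38.p6, at chr6:52218524-52218823 for *Hoxa7*, chr6:52227321-52227620 for *Hoxa9* and chr11:19018920-19019219 for *Meis1*.
Hoxa7: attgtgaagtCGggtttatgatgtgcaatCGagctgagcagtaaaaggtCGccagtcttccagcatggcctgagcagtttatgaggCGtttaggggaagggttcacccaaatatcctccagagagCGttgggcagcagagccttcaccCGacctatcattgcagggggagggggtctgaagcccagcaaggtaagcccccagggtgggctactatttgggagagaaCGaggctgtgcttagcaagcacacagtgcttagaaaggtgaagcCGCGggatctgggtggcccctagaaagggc
Hoxa9: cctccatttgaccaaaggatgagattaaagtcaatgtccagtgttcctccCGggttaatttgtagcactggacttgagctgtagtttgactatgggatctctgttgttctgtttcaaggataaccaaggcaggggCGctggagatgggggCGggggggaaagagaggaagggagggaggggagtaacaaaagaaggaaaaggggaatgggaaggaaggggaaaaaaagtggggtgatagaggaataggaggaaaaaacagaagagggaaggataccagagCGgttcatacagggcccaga
Meis1: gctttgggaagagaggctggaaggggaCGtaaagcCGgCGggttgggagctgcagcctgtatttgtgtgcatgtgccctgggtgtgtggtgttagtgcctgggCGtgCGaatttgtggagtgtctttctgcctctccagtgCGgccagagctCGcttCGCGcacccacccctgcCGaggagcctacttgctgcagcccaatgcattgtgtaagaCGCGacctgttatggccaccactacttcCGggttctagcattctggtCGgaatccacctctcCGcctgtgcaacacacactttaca
These windows hold 9, 4 and 15 CG pairs, in that order. The median over 32851 promoter windows of this length was 7, and 45.8% of windows had at least as many as *Hoxa7*, 68.6% as many as *Hoxa9* and 34.6% as many as *Meis1*. The *Hoxa5* window (chr6:52204538-52204837) had 29 pairs and those at the 2 starts of *Hoxa10* had 12 and 21. Both strands were searched for TGACAG, the letters of a Meis motif, and TGATTTA, those of a motif of Hoxa9 with a partner. They occur in 19.2% and 2.97% of all windows and in 0 of the windows of the 5 genes. DNA methylation and protein binding were not analysed here.

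Cell types were rebuilt from the RNA with all Hox genes, *Meis1* and its relatives left out of the clustering, so that these genes did not set the types. HSPC-like cells (haematopoietic stem and early progenitor cells) came from 2 clusters led by *Ctla2a*, *Adgrg1*, *Car2* and *Myct1*, and they numbered 172 in the WT and 262 in the *Tet2* KO GMP library and 244 and 583 in the WT and *Tet2* KO Lin-/CD11b+ libraries. Summed over 10 HSPC markers they had 774 to 1502 CPM, against 162 to 413 CPM in GMP-like cells, but basophil-like cells had 1601 to 2386 CPM over the same markers, so this sum does not set HSPC-like cells apart from them. Mono-biased GMP-like cells had 4892 to 5087 CPM over 10 monocytic markers and neutro-biased GMP-like cells 13674 to 15777 CPM over 12 granulocytic ones. The neutro-biased name rests on 3 markers that stood out, and *Nkg7* was among the leading genes of both of its clusters. Cluster 0, led by *Ung*, *Serpinf1*, *Ly6c2* and *Cdca7*, also came mostly from the GMP sort and was left without a name.

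*Hoxa7* was the member with most RNA molecules, 1935 UMIs of 4603 over the 27 rows named for a Hox gene, which include 3 antisense transcripts of other clusters. Together with *Hoxa9* it made up 71.3% of these UMIs. In HSPC-like cells *Hoxa7* was at 41.0 CPM (34.4 to 48.6) in the WT GMP library, 25.0 (20.6 to 30.1) in the *Tet2* KO GMP library, 45.8 (38.5 to 54.2) in the WT Lin-/CD11b+ library and 37.1 (32.4 to 42.3) in the *Tet2* KO Lin-/CD11b+ library. Only the *Tet2* KO GMP library stood below the rest, and its interval met none of the other 3. Mono-biased GMP-like cells were at 17, 4.48, 15.8 and 7.60 CPM, in the same order of libraries. Neutro-biased GMP-like cells were at 22.5, 9.77, 19.8 and 6.40 CPM, and cluster 0 at 21.5, 7.39, 25.9 and 11.5 CPM. In each of these 3 types both WT libraries were above both *Tet2* KO libraries.

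The share of cells with a *Hoxa7* UMI gave the same order at an equal depth. After every cell was thinned to 5000 UMIs, *Hoxa7* was seen in 18.6%, 11.1%, 21.3% and 16.0% of HSPC-like cells, against 48.3%, 32.1%, 41.4% and 30.4% before thinning. Of mono-biased GMP-like cells 7.89%, 2.01%, 5.85% and 4.08% kept a UMI, and of neutro-biased ones 9.77%, 4.33%, 6.82% and 2.83%. Mature neutrophil-like cells, which should lack the gene, had a *Hoxa7* UMI in 1 of 150 WT and 1 of 157 *Tet2* KO cells sorted as Lin-/CD11b+ (0.667% and 0.637%, at medians of 8870 and 9054 UMIs per cell), and monocyte-like cells of the *Tet2* KO GMP library in 1 of 109 (median 14973 UMIs). All the shares in progenitors were above these levels. After thinning, the interval of WT neutrophil-like cells (0.0169 to 3.66) met those of both GMP-like types in every library but the WT GMP one. Plasma cell-like cells of the WT Lin-/CD11b+ library were then at 4.37% (1.91 to 8.43), above both GMP-like types of both *Tet2* KO libraries.

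*Hoxa9*, the HoxA gene most tied to myeloid leukaemia, followed a like course. HSPC-like cells were at 33.7 CPM (27.7 to 40.6) in the WT GMP, 15.3 (11.9 to 19.4) in the *Tet2* KO GMP, 34.5 (28.2 to 41.9) in the WT Lin-/CD11b+ and 31.3 (26.9 to 36.1) in the *Tet2* KO Lin-/CD11b+ library. Once more the *Tet2* KO GMP library alone was low in these cells. Neutro-biased GMP-like cells were at 21, 6.47, 17.2 and 6.05 CPM and mono-biased ones at 8.02, 2.80, 10.4 and 1.90 CPM, from 43, 30, 29 and 6 UMIs. In the WT GMP library the neutro-biased interval (17.9 to 24.5) lay above that of the mono-biased cells (5.80 to 10.8). A *Hoxa9* UMI was found in 2% of the WT neutrophil-like cells and 0.637% of the *Tet2* KO ones, and mono-biased cells of the *Tet2* KO Lin-/CD11b+ library, with 3.06%, were within the counting error of this background.

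*Meis1*, which codes for a homeodomain protein of the TALE class that binds DNA together with Hoxa9, did not share the order of libraries. Its level was highest in HSPC-like cells, except in the *Tet2* KO GMP library, where basophil-like cells were slightly higher. In both GMP libraries *Meis1* had overlapping intervals in these types. In HSPC-like cells it was at 31.9 CPM (26.0 to 38.6) in the WT GMP, 16.2 (12.7 to 20.4) in the *Tet2* KO GMP, 62.1 (53.5 to 71.7) in the WT Lin-/CD11b+ and 74.7 (68.0 to 82.0) in the *Tet2* KO Lin-/CD11b+ library. Here the 2 sorts stood apart, with both Lin-/CD11b+ libraries above both GMP libraries. Neutro-biased GMP-like cells had 6.91, 5.16, 5.13 and 3.20 CPM, mono-biased ones 4.10, 2.99, 4.30 and 6.34 CPM, and cluster 0 had 4.50, 4.43, 8.47 and 6.98 CPM. These levels overlapped between genotypes within each sort. Basophil-like cells had *Meis1* at 27.6, 17.1, 12.1 and 23.6 CPM, and pDC-like cells of the Lin-/CD11b+ sort were near these levels, at 12.4 and 14.3 CPM.

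*Hoxa10*, which lies next to *Hoxa9* in the cluster, was counted as 20 UMIs in the WT GMP library, 0 in the *Tet2* KO GMP library, 24 in the WT Lin-/CD11b+ library and 27 in the *Tet2* KO Lin-/CD11b+ library. HSPC-like cells held 10, 0, 15 and 26 of them, or 3.06, 0, 4.98 and 4.35 CPM. Of the rest, 8 lay in neutro-biased GMP-like cells of the WT GMP library and 4 in plasmacytoid dendritic (pDC-like) cells of the WT Lin-/CD11b+ library. The *Tet2* KO GMP library, the deepest of the 4, was thus the only one without the gene, and 0 of its 2719 cells allows a share of up to 0.136% of cells with a UMI. With *Hoxa10* put at a floor of 3 counts in that library, it was 12.4-fold lower than in the WT GMP library over all cells. In HSPC-like cells it was 4.53-fold lower. These folds leave out the counting error of the 20 and 10 WT UMIs. Mono-biased GMP-like cells had 0 *Hoxa10* UMIs in all 4 libraries.

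*Hoxa5*, the member nearest to the 3′ end of the cluster, was rare as well, with 48, 21, 29 and 55 UMIs in the same order of libraries (2.10, 0.493, 1.28 and 1.62 CPM). Its level showed no clear order of types, since in WT GMP cells the values ran from 1.49 CPM in mono-biased to 5.38 in basophil-like cells with overlapping intervals. HSPC-like cells had 8, 4, 5 and 24 UMIs, and mono-biased GMP-like cells 8, 0, 1 and 4. The *Tet2* KO GMP library was again the lowest, in all cells and in HSPC-like cells.

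**Figure D1:**
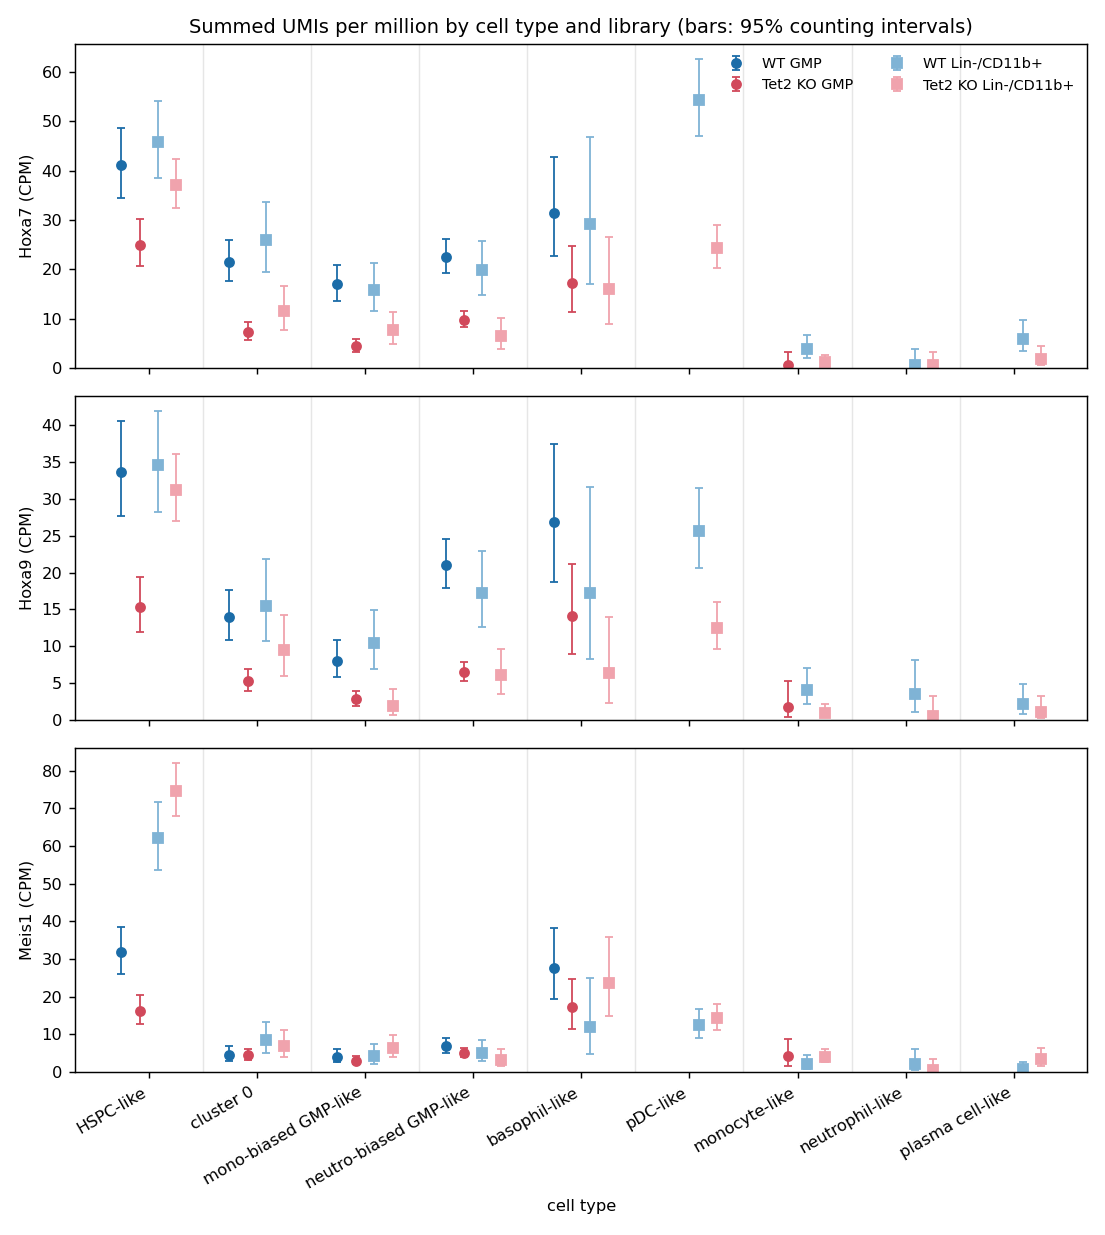
Levels of *Hoxa7*, *Hoxa9* and *Meis1* (CPM, y axes from 0) in each cell type (x axis) and library, with points for summed UMIs per 1000000 and bars for 95% counting intervals. In cluster 0 and in both GMP-like types the *Hoxa7* and *Hoxa9* points of the *Tet2* KO libraries lie below the WT points of the same sort, while the highest *Meis1* points are the HSPC-like cells of the 2 Lin-/CD11b+ libraries, at 62.1 and 74.7 CPM.

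The step from HSPC-like to GMP-like cells could be read in 4 libraries side by side, but HSPC-like cells were not alike in the 2 sorts. The GMP sort took Sca1- cells, and its HSPC-like cells had *Cebpe* at 153 CPM in WT and 122 in *Tet2* KO. Those of the Lin-/CD11b+ sort had it at 36.5 and 28.2 CPM, so the step starts from different cells in each sort. Among *Hoxa7*, *Hoxa9* and *Meis1*, the last had the steepest step in WT cells. Its HSPC-like over mono-biased log2 ratios were 2.96 (2.28 to 3.69) in the GMP and 3.85 (3.01 to 4.83) in the Lin-/CD11b+ library. In the *Tet2* KO libraries they were 2.44 and 3.56. *Hoxa9* gave 2.07 (1.55 to 2.62) and 1.73 (1.13 to 2.38) in WT and 2.45 and 4.04 in *Tet2* KO cells. *Hoxa7* had the smallest value of these 3 genes in WT cells, 1.27 (0.88 to 1.68) and 1.54 (1.04 to 2.06), against 2.48 and 2.29 in *Tet2* KO cells. In both WT libraries its interval overlapped that of *Hoxa9*, and in the WT GMP library those of *Hoxa9* and *Meis1* overlapped too. For *Hoxa7* and *Hoxa9* the step was larger in *Tet2* KO than in WT cells of the same sort. The difference between genotypes had an interval that held 0 for *Hoxa9* in the GMP sort and for *Hoxa7* in the Lin-/CD11b+ sort. Cells taken by detected genes did not show this larger step in *Tet2* KO cells of the GMP sort. There *Hlf* or *Procr* cells over *Ly86* cells gave 1.13 in WT and 1.18 in *Tet2* KO cells for *Hoxa7* and 2.09 and 1.56 for *Hoxa9*. Of the *Hlf* or *Procr* cells, 39 of 88 in WT and 21 of 111 in *Tet2* KO were HSPC-like by cluster. The gate thus held unlike cells in the 2 genotypes and cannot show whether the step differs at a like stage.

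Over neutro-biased GMP-like cells the step of *Hoxa7* was 0.87 for WT and 1.36 for *Tet2* KO cells of the GMP sort and 1.21 and 2.54 in the Lin-/CD11b+ sort. *Hoxa9* gave 0.68 and 1.24, then 1.0 and 2.37. *Meis1* gave 2.20 and 1.65, then 3.60 and 4.54. In WT cells the intervals of *Hoxa7* and *Hoxa9* overlapped, and those of *Meis1* lay above both. Of the 24 values of these 3 genes every one was above 0.

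In the ratio of *Tet2* KO over WT, *Hoxa7* and *Hoxa9* were lower in *Tet2* KO cells of every progenitor type in the GMP sort. In mono-biased GMP-like cells the log2 ratio of *Hoxa7* was -1.92 (-2.46 to -1.40), a 3.79-fold lower level, and that of *Hoxa9* -1.52 (-2.24 to -0.81). Neutro-biased cells had -1.20 (-1.53 to -0.87) for *Hoxa7* and -1.70 (-2.08 to -1.32) for *Hoxa9*. Cluster 0 had -1.54 (-2.0 to -1.09) and -1.40 (-1.96 to -0.85). *Meis1* had intervals that held 0 in these 3 types, at -0.46 (-1.29 to 0.40), -0.42 (-0.95 to 0.12) and -0.02 (-0.80 to 0.79).

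Read against all genes with at least 20 UMIs in the 2 libraries, 2 of the 3 members counted were lower by 2-fold or more in mono-biased cells of the GMP sort, where the share over all genes was 1.38%. In neutro-biased cells it was 3 of 4 with *Hoxa5* among them (1.47% of all genes), in cluster 0 it was 2 of 3 (1.53%), and over all cells of the GMP sort 4 of 5, all but *Meis1* (2.47%). In the other direction 0 members were at 2-fold or more higher, beside 1.56% of all genes in mono-biased cells, 1.59% in neutro-biased cells, 1.37% in cluster 0 and 1.11% over all cells. The members left out of each count had fewer UMIs. These shares served to choose the genes, so they stand as description. The median log2 ratio over all genes was between -0.06 and -0.01 in these types.

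The same types could be looked at in the Lin-/CD11b+ sort, from the same mice. *Hoxa7* had log2 ratios of -1.05 (-1.84 to -0.30) in mono-biased cells, -1.63 (-2.49 to -0.84) in neutro-biased cells and -1.17 (-1.88 to -0.49) in cluster 0. *Hoxa9* had -2.45 (-4.01 to -1.16), -1.51 (-2.40 to -0.68) and -0.72 (-1.55 to 0.09). At 2-fold or more lower were 2 of 3 members in mono-biased (1.39% of all genes), 2 of 3 in neutro-biased (1.25%) and 1 of 3 in cluster 0 (1.28%), and 0 members were at 2-fold or more higher (2.29%, 2.27% and 2.37% of all genes). Over all cells of these libraries 0 of 5 members were past 2-fold in either direction, where 1.63% of all genes were lower and 3.1% higher. *Meis1* was at 0.56 (-0.54 to 1.72) among the mono-biased and -0.68 (-2.07 to 0.63) among the neutro-biased cells.

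The gap between *Hoxa7* or *Hoxa9* and *Meis1* could itself be given an interval. In mono-biased cells of the GMP sort the log2 ratio of *Hoxa7* was lower than that of *Meis1* by 1.46 (difference -1.46, -2.39 to -0.53) and that of *Hoxa9* differed from it by -1.06 (-2.09 to -0.03). In neutro-biased cells the differences were -0.78 (-1.38 to -0.18) and -1.28 (-1.91 to -0.65). The Lin-/CD11b+ sort gave -1.61 and -3.01 in mono-biased cells, with intervals below 0, and -0.95 and -0.83 in neutro-biased cells, with intervals that held 0. Cluster 0 gave -1.52 and -1.38 in the GMP sort, with intervals below 0, and -0.89 and -0.44 in the Lin-/CD11b+ sort, with intervals that held 0. HSPC-like cells of the GMP sort showed no such gap, at 0.26 (-0.31 to 0.82) and -0.16 (-0.78 to 0.45). Those of the Lin-/CD11b+ sort gave -0.57 (-0.96 to -0.18) and -0.41 (-0.84 to 0.01).

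**Figure D2:**
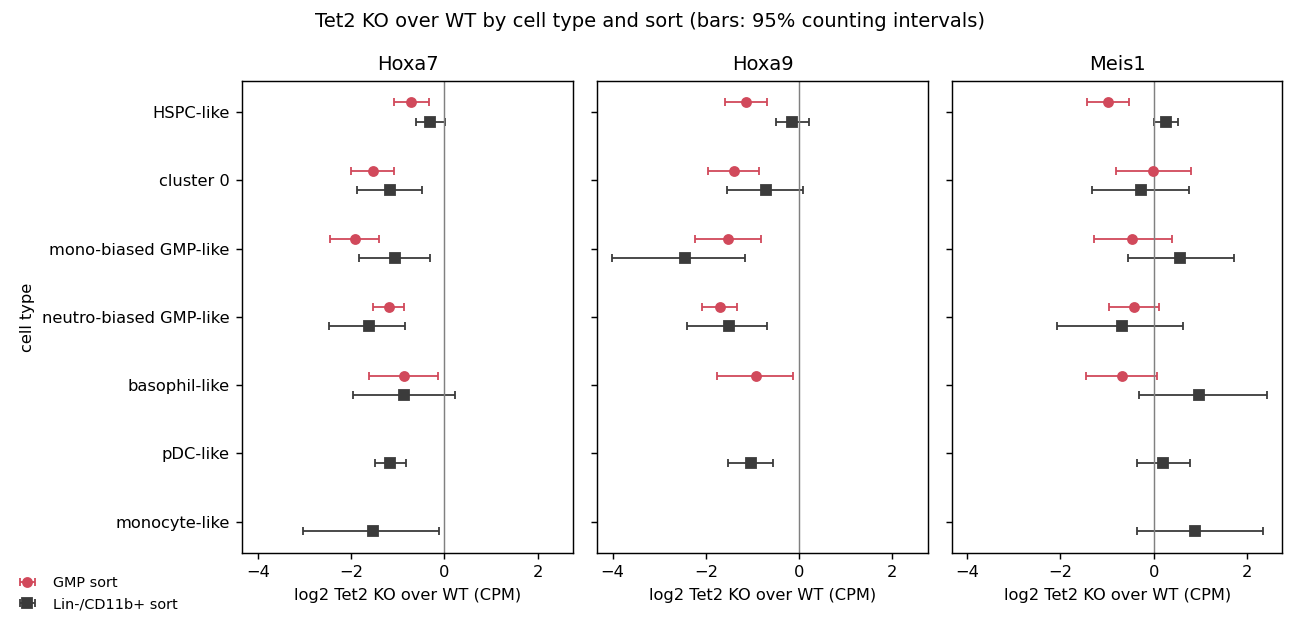
Log2 ratio of *Tet2* KO over WT (x axes, CPM) of *Hoxa7*, *Hoxa9* and *Meis1* by cell type (y axis) in the GMP and Lin-/CD11b+ sorts, with 95% counting intervals; types with fewer than 20 UMIs have no point. Points of *Hoxa7* and *Hoxa9* lie left of 0 in every type plotted, and *Meis1* in HSPC-like cells lies at -0.97 in the GMP and 0.27 in the Lin-/CD11b+ sort.

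HSPC-like cells gave different values in the 2 sorts. In the GMP sort the log2 ratio of *Tet2* KO over WT was -0.71 (-1.09 to -0.34) for *Hoxa7*, -1.14 (-1.59 to -0.69) for *Hoxa9* and -0.97 (-1.43 to -0.53) for *Meis1*, with 1 of 3 members at 2-fold or more lower (2.28% of all genes) and 0 at 2-fold or more higher (1.40%). In the Lin-/CD11b+ sort the values were -0.30 (-0.62 to 0.01), -0.14 (-0.50 to 0.22) and 0.27 (0.02 to 0.52), and *Hoxa10*, with 15 WT and 26 *Tet2* KO UMIs, was at -0.20 (-1.17 to 0.82). There 0 of 5 members were at 2-fold or more lower (0.744% of all genes) and 1 of 5 was at 2-fold or more higher (2.80%), *Hoxa5* at 1.27 (-0.15 to 3.02). The GMP sort minus the Lin-/CD11b+ sort was -1.24 (-1.74 to -0.74) for *Meis1*, -0.99 (-1.55 to -0.44) for *Hoxa9* and -0.41 (-0.88 to 0.07) for *Hoxa7*.

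Genes of other stages moved with these values. In HSPC-like cells of the GMP sort *Hlf*, a stem cell transcription factor, was at 13.8 CPM in WT and 4.06 in *Tet2* KO cells, the surface marker *Cd34* at 241 and 166, and *Mpo*, a granule enzyme of GMPs, at 3790 and 4874. The 10 HSPC markers together were at 1000 and 774 CPM, and the 12 granulocytic ones at 3323 and 4903. In the Lin-/CD11b+ sort *Hlf* was at 36.9 and 42.6 CPM, *Mpo* at 1782 and 1768, and the HSPC markers at 1502 and 1465. The part of these stage differences in the ratios was not tested beyond the subsets that follow.

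Of the 2 clusters of HSPC-like cells, cluster 2 held 94 of the WT and 170 of the *Tet2* KO cells of the GMP sort, and cluster 8 most of those of the Lin-/CD11b+ sort, 148 and 390. Within cluster 2 of the GMP sort *Hoxa9* was at -1.45 (-2.0 to -0.90) and *Meis1* at -1.25 (-1.82 to -0.69), and within cluster 8 at -0.44 (-1.30 to 0.39) and -0.38 (-1.17 to 0.40). *Hoxa7* was at -0.61 (-1.07 to -0.15) and -0.92 (-1.65 to -0.23). In the GMP sort all 3 genes were lower in both clusters, with intervals clear of 0 in cluster 2.

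A difference between cell types within a sort was seen for *Hoxa7*, whose ratio in mono-biased cells of the GMP sort was below that of HSPC-like cells by a log2 difference of -1.21 (-1.83 to -0.59). The difference for neutro-biased cells was -0.49 (-0.97 to -0.000856). By detected genes in the same sort no such difference was seen, with *Hoxa7* ratios of -1.72 in *Hlf* or *Procr* cells, -1.77 in *Ly86* cells and -0.89 in *Cebpe* cells. The *Hlf* or *Procr* gate held unlike cells in the 2 genotypes. Its HSPC-like cells alone, 39 WT and 21 *Tet2* KO, had a *Hoxa7* ratio of -0.27 (-1.36 to 0.72). In the Lin-/CD11b+ sort *Hoxa9* differed by -2.31 (-3.62 to -0.99) among mono-biased and -1.37 (-2.24 to -0.49) among neutro-biased cells, and *Hoxa7* by -0.75 (-1.53 to 0.03) and -1.32 (-2.15 to -0.50). For *Hoxa9* in the GMP sort the intervals held 0, at -0.38 (-1.18 to 0.42) and -0.56 (-1.13 to 0.01).

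Cells were also taken by single detected genes, without clusters. Those with a UMI of *Hlf* or *Procr*, 2 genes of stem cells, numbered 88 in the WT and 111 in the *Tet2* KO GMP library and had *Hoxa7* at 40.6 and 12.4 CPM, a log2 ratio of -1.72 (-2.44 to -1.04). Of these cells 39 WT and 21 *Tet2* KO cells were HSPC-like by cluster, and 38 and 49 were neutro-biased GMP-like. *Hoxa9* was at 36.8 and 11.8 CPM and *Meis1* at 26.0 and 8.75. Within the 39 and 21 HSPC-like cells alone *Hoxa7* was at -0.27 (-1.36 to 0.72), *Hoxa9* at -1.44 (-2.97 to -0.18) and *Meis1* at -1.03 (-2.26 to 0.02). In the Lin-/CD11b+ libraries 79 of 114 WT and 188 of 241 *Tet2* KO cells of this kind were HSPC-like, and over all of them *Hoxa7* was at 47.8 and 30.3 CPM, *Hoxa9* at 36.1 and 30.3 and *Meis1* at 61.8 and 89.8.

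Cells with a UMI of *Ly86*, a monocytic gene, and none of *Cebpe*, *Hlf* or *Procr* had *Hoxa7* at 18.6 CPM in WT and 5.45 in *Tet2* KO cells of the GMP sort and at 26.2 and 10.1 in the Lin-/CD11b+ sort. In the Lin-/CD11b+ sort this gate was mixed, with 345 pDC-like, 232 monocyte-like and 137 mono-biased GMP-like cells among 941 WT cells and 479, 393 and 136 among 1470 *Tet2* KO cells. Cells with *Cebpe*, a regulator of granulocyte maturation, and none of the other 3 had it at 24.3 and 13.1 CPM and at 18.6 and 8.57, and in the Lin-/CD11b+ sort 114 of them in each library were neutrophil-like. *Hoxa9* was at 8.67 and 4.02, then 12.2 and 5.11, in *Ly86* cells, and at 22.9 and 8.25, then 19.7 and 7.56, in *Cebpe* cells. In both gates and sorts the *Tet2* KO value was the lower, with intervals of the ratio that were below 0. *Meis1* in these gates had log2 ratios of -0.76 (-1.38 to -0.12) and -0.69 (-1.14 to -0.24) in the GMP sort, with intervals below 0 as well. In the Lin-/CD11b+ sort they were 0.14 (-0.26 to 0.56) and 0.11 (-0.74 to 0.97).

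Cells with both *Ly86* and *Cebpe* had the lowest *Hoxa9* ratios of the gates, -2.12 (-2.82 to -1.44) in the GMP and -2.17 (-3.79 to -0.77) in the Lin-/CD11b+ sort. Their *Meis1* level, 3.05 and 4.85 CPM in the GMP sort, rested on 11 WT and 36 *Tet2* KO UMIs. Cells with none of the 4 genes were split by sort, with *Hoxa7* at 33.6 CPM in WT and 11.9 in *Tet2* KO cells of the GMP sort, but 20.4 and 21.9 in the Lin-/CD11b+ sort. The latter differed in make-up, with 111 HSPC-like and 131 plasma cell-like cells among 405 WT cells and 305 and 140 among 779 *Tet2* KO cells.

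**Figure D3:**
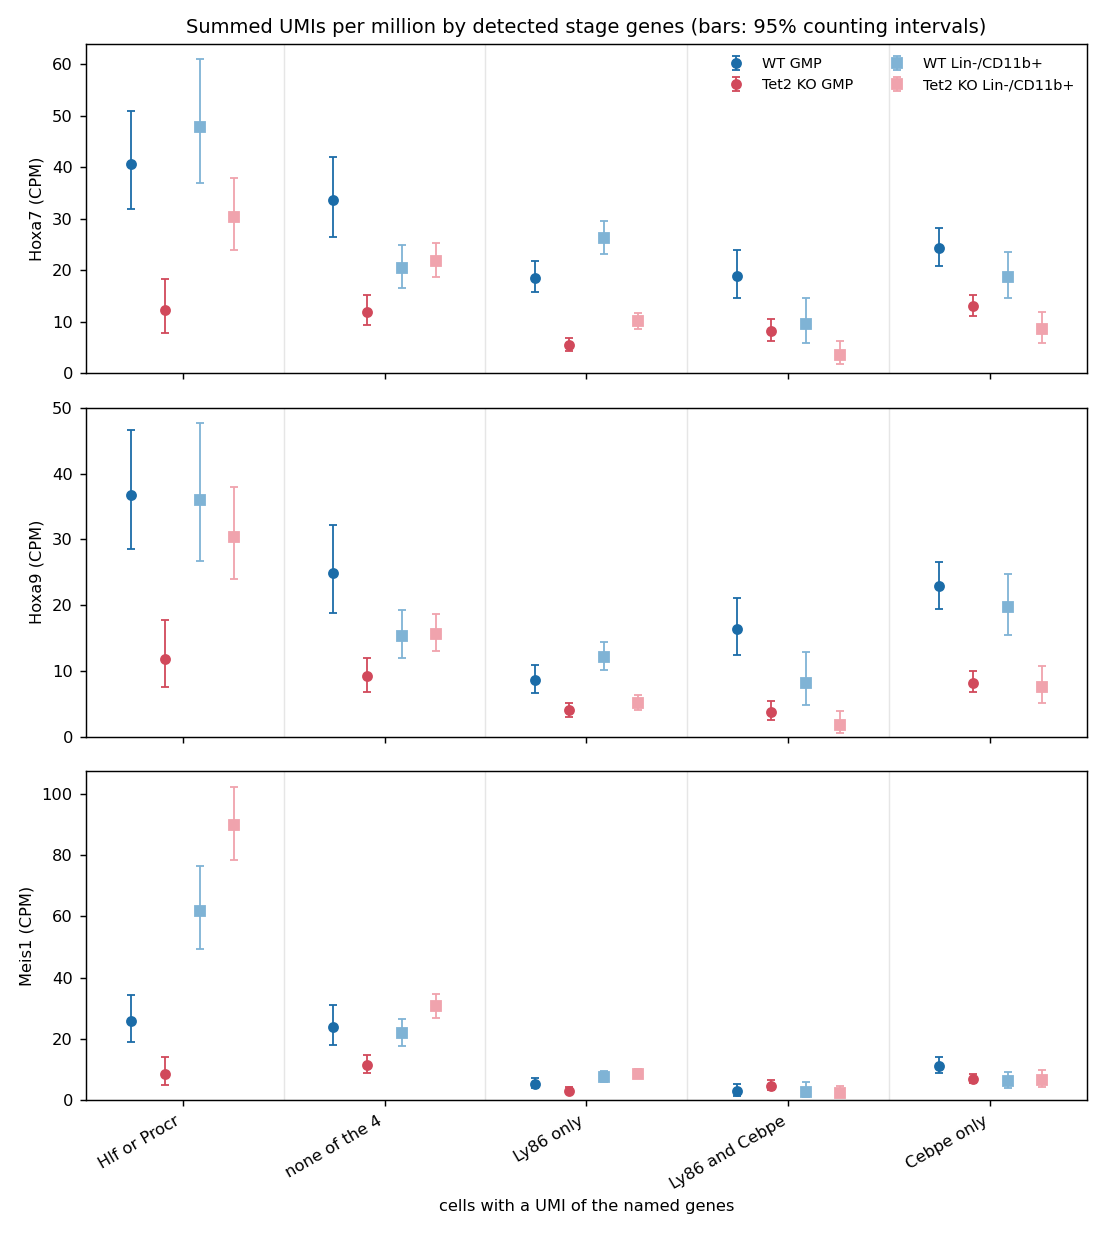
Levels of *Hoxa7*, *Hoxa9* and *Meis1* (CPM, y axes from 0) in cells grouped by whether they had a UMI of *Hlf* or *Procr*, of *Ly86*, of *Cebpe* or of none of the 4 (x axis), with 95% counting intervals. For *Hoxa7* and *Hoxa9* the *Tet2* KO GMP points lie under the WT GMP points in all 5 groups, and *Meis1* reaches 89.8 CPM in *Hlf* or *Procr* cells of the *Tet2* KO Lin-/CD11b+ library.

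Because *Cd34* was lower in *Tet2* KO cells, progenitors were split by whether they kept a *Cd34* UMI after thinning to 5000 UMIs. In the GMP sort *Hoxa7* was at -1.18 (-1.48 to -0.89) in progenitors with *Cd34* and -1.28 (-1.55 to -1.0) in those without. *Hoxa9* was at -1.25 (-1.63 to -0.88) and -1.65 (-1.97 to -1.34), and *Meis1* at -0.61 (-1.03 to -0.18) and -0.72 (-1.11 to -0.33). Both sides of the split were thus lower for all 3 genes in this sort. In the Lin-/CD11b+ sort the values were -0.23 and -0.76 for *Hoxa7*, -0.21 and -0.47 for *Hoxa9*, and 0.39 (0.11 to 0.67) and 1.14 (0.73 to 1.57) for *Meis1*.

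Within single types of the GMP sort the split changed 1 value most. HSPC-like cells without a *Cd34* UMI had *Hoxa7* at 26.3 CPM for WT and 26.6 for *Tet2* KO cells, a ratio of 0.01 (-0.67 to 0.73), from 28 and 54 UMIs, while *Hoxa9* in the same cells was at 37.6 and 14.8 CPM and *Meis1* at 37.6 and 14.3. With a *Cd34* UMI they had *Hoxa7* at 48.1 and 23.7 CPM (-1.02, -1.51 to -0.55). Mono-biased cells with a *Cd34* UMI had *Hoxa7* at 24.8 and 4.60 CPM (-2.43, -3.54 to -1.44), and those without at 13.5 and 4.44 (-1.60, -2.25 to -0.96).

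**Figure D4:**
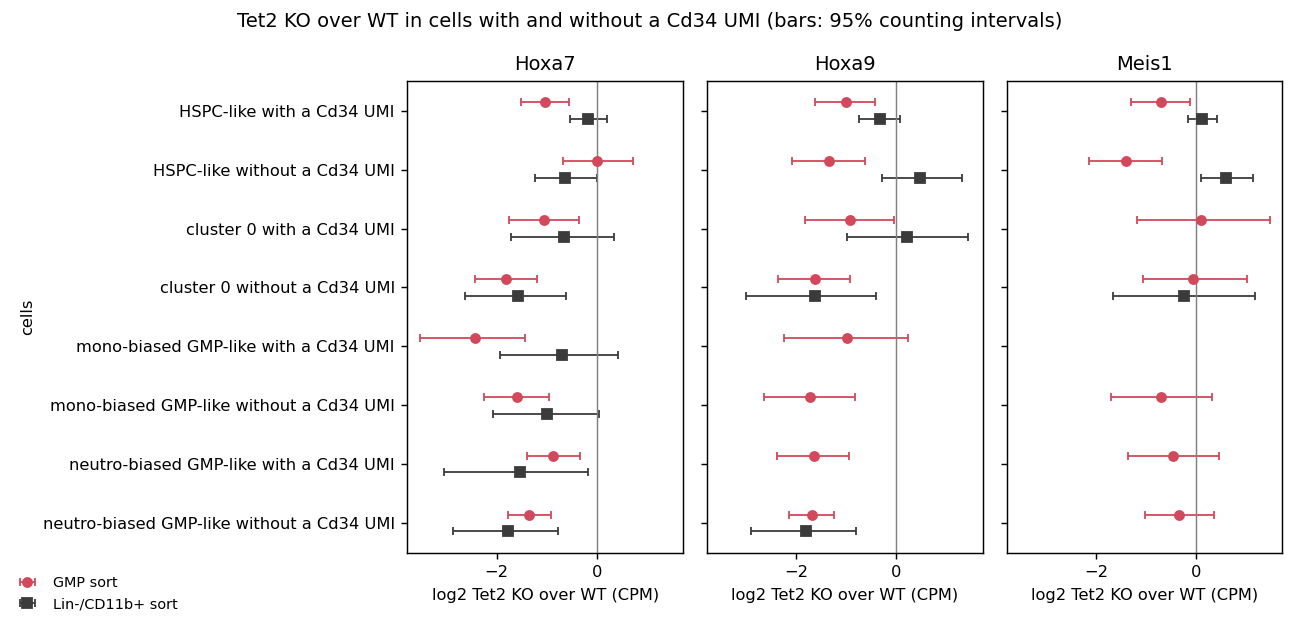
Log2 ratio of *Tet2* KO over WT (x axes, CPM) of *Hoxa7*, *Hoxa9* and *Meis1* in cells of each progenitor type with and without a *Cd34* UMI after thinning (y axis), by sort, with 95% counting intervals. *Hoxa9* in the GMP sort lies left of 0 in all 8 groups, and *Hoxa7* of HSPC-like cells without *Cd34* lies at 0.01.

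Outside the granulocyte and monocyte path, pDC-like cells of the Lin-/CD11b+ sort, 380 WT and 526 *Tet2* KO cells, also had *Hoxa7* RNA. Their level was 54.3 CPM (46.9 to 62.5) in WT, the highest value in that library but with an interval that met that of HSPC-like cells, and 24.3 (20.2 to 29.0) in *Tet2* KO cells, below the HSPC-like cells of that library, a ratio of -1.16 (-1.5 to -0.83). After thinning 23.7% and 9.32% of them had a *Hoxa7* UMI. *Hoxa9* was at 25.6 and 12.5 CPM (-1.03, -1.51 to -0.55) and *Meis1* at 12.4 and 14.3 (0.21, -0.35 to 0.78). At 2-fold or more lower were 2 of 4 members, beside 1.78% of all genes, and 0 were at 2-fold or more higher (2.37%).

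Basophil-like cells had *Hoxa7* at 31.5 CPM in the WT and 17.1 in the *Tet2* KO GMP library and at 29.3 and 16.1 in the WT and *Tet2* KO Lin-/CD11b+ libraries. The log2 ratio was -0.88 (-1.62 to -0.15) for the GMP sort and -0.86 (-1.97 to 0.23) for the Lin-/CD11b+ one, and 0 of the 3 members counted in the GMP sort were past 2-fold, where 2.74% of all genes were lower and 1.94% higher. The Lin-/CD11b+ libraries gave 0 of 2 members, beside 3.48% lower and 4.87% higher. *Meis1* of these cells was at -0.69 (-1.46 to 0.06) in the GMP and 0.97 (-0.31 to 2.44) in the Lin-/CD11b+ sort.

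Monocyte-like, plasma cell-like and neutrophil-like cells had less *Hoxa7* than both GMP-like types of the same library. Monocyte-like cells of the Lin-/CD11b+ sort had *Hoxa7* at 3.80 CPM in WT and 1.31 in *Tet2* KO cells, from 12 and 8 UMIs, with 1 of 2 members at 2-fold or more lower (1.58% of all genes) and 0 higher (2.39%). Their *Meis1* was at 2.22 and 4.10 CPM, from 7 and 25 UMIs, within the range of the GMP-like types in the *Tet2* KO library. Cluster 7, led by *Ccl5* and *Wfdc17* and not named, had *Meis1* at 8.40 CPM and *Hoxa7* at 6.63 CPM in its 254 *Tet2* KO cells, from 19 and 15 UMIs. Plasma cell-like cells had *Hoxa7* at 5.93 and 1.89 CPM, from 16 and 5 UMIs, and it was 2-fold or more lower as the 1 member counted there, beside 1.71% of all genes at 2-fold or more lower and 7.27% higher. In neutrophil-like cells, where 1.88% of all genes were 2-fold or more lower and 7.65% higher, no member reached 20 UMIs, and their *Hoxa7* level rested on 1 UMI in each library.

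*Hoxa9* and *Meis1* proteins act as partners, and their RNAs were looked for in the same cell after thinning. Of HSPC-like cells 5 of 172 in the WT GMP library had both (2.91%, against 2.19% for the product of their shares), 1 of 262 in the *Tet2* KO GMP library (0.382% against 0.619%), 19 of 244 in the WT Lin-/CD11b+ library (7.79% against 6.01%) and 34 of 583 in the *Tet2* KO Lin-/CD11b+ library (5.83% against 4.81%). The interval of the measured share held the product in every library. In either GMP-like type 0 or 1 cell per library had both. Elsewhere the interval lay above the product in *Tet2* KO cells for *Hoxa7* with *Meis1* in HSPC-like cells of the GMP sort (2.67%, 1.08 to 5.43, against 1.06%). In pDC-like *Tet2* KO cells it did so for *Hoxa9* with *Meis1* (1.14%, 0.420 to 2.47, against 0.359%), *Hoxa7* with *Hoxa9* (2.28%, 1.18 to 3.95, against 0.549%) and *Hoxa7* with *Meis1* (1.52%, 0.659 to 2.97, against 0.567%). These rest on 6 to 12 cells each, and no test was made.

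Across 31 pairs of library and cell type with at least 50 cells, the profile most like that of *Hoxa7* was that of *Hoxa9*, with a Pearson r of 0.93 of log2(CPM + 1), given as a description since the pairs share libraries, mice and depth. Among 9187 candidate genes the next for *Hoxa7* were *Cd27* (0.90), *Sox4* (0.89), *Zfp266* (0.89) and *Cd1d1* (0.86), and for *Hoxa9* they were *Zfp266*, *Chd9*, *Repin1* and *Cd27* (0.86 to 0.85). *Meis1* was most like *Ripor1* (0.92), *Adgrg1*, *Osbpl1a*, *Zfp664* and *Tespa1* (0.89 to 0.88). *Hoxa10* was most like *Mecom* (0.89), *Hlf* (0.85), *Vldlr* (0.85), *Gata3* (0.83) and *Plscr2* (0.78), 3 of which are transcription factors known from early progenitors, although its few UMIs limit this value. *Hoxa5* had its nearest profiles in *Fads1* (0.78), *Tmem98*, *Zfp1*, *Kansl1l* and *Otud7b* (0.73 to 0.70). *Meis1* had an r of 0.73 with *Hoxa7* and 0.75 with *Hoxa9*.

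The other genes of the HoxA locus were mostly too rare to compare, with 8 of 12 listed genes measured and at most 2 of them above 20 UMIs in any type. *Hotairm1*, a noncoding RNA of the cluster, was at 8.19 CPM in WT and 4.33 in *Tet2* KO cells of cluster 0 in the GMP sort (-0.92, -1.58 to -0.25) and at 8.94 and 4.93 in the Lin-/CD11b+ sort (-0.86, -2.03 to 0.26). In mono-biased cells of the GMP sort *Hotairm1* was at -0.22 (-1.04 to 0.63). *Hoxaas3*, the antisense neighbour of *Hoxa7*, was at 1.30 CPM in WT and 2.24 in *Tet2* KO mono-biased cells of the GMP sort, a ratio of 0.78 (-0.48 to 2.24), where *Hoxa7* was at -1.92. Of the HoxB, HoxC and HoxD genes, *Hoxb4*, known for expanding stem cells when overexpressed, had most UMIs, and its ratio was 0.74 (-0.22 to 1.80) among mono-biased and 0.09 (-0.74 to 0.96) among neutro-biased cells of the GMP sort. In the Lin-/CD11b+ sort *Hoxb4* was at -1.52 in cluster 0 (1.28% of all genes 2-fold or more lower) and at 1.0 in pDC-like cells (2.37% higher). There *Hotairm1* was 2-fold or more higher in HSPC-like cells (2.80% of all genes) and lower in monocyte-like cells (1.58%).

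Lists of partners and regulators of the locus had median ratios near 0 in the GMP sort. Over all genes 1.38% were 2-fold or more lower and 1.56% higher in its mono-biased cells, and 1.47% and 1.59% in its neutro-biased cells. Of 17 activators of the locus, *Kmt2a* and its partners among them, 17 could be compared in mono-biased cells, where 0 were 2-fold or more lower or higher and the median log2 ratio was -0.12, and in neutro-biased cells, with 0 and a median of -0.06. Of 16 Polycomb genes 14 could be compared, with 0 past 2-fold in mono-biased cells (median -0.08) and 1 in neutro-biased cells, *Phc1*, which was higher (median -0.10). *Ezh2*, the Polycomb methyltransferase, was at 122 CPM in WT and 109 in *Tet2* KO mono-biased cells (-0.15, -0.29 to -0.01). Of the 10 TALE cofactors 7 could be compared, with 0 past 2-fold in either GMP-like type. *Pbx4* was lower in mono-biased cells of both sorts, at -0.78 (-1.36 to -0.20) and -1.0 (-2.11 to 0.04).

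Genes described as targets of Hoxa9 and Meis1 went in both directions. In mono-biased and in neutro-biased cells of the GMP sort 0 of 14 compared were past 2-fold in either direction, with medians of -0.13 and -0.07, and in HSPC-like cells of that sort 2 of 15 were lower, *Pim1* and *Mecom*, and 1 higher, *Id2*, with a median of -0.32, beside 2.28% and 1.40% of all genes. The kinase gene *Pim1* was at 59.5 CPM in WT and 35.1 in *Tet2* KO neutro-biased cells of the GMP sort (-0.76, -0.95 to -0.58) and at 58.3 and 34.9 in the Lin-/CD11b+ sort (-0.74, -1.12 to -0.37), while in mono-biased cells of the GMP sort it was at 61.9 and 62.6 CPM. *Camk2d*, a calcium-dependent kinase, was higher in mono-biased *Tet2* KO cells of both sorts, at 0.95 (0.32 to 1.62) and 1.56 (0.60 to 2.62). *Myb*, a transcription factor of progenitors and among the targets with most UMIs, was at 108 CPM in WT and 100.4 in *Tet2* KO mono-biased cells (-0.10, -0.25 to 0.05).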

How the data were processed

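Single cells were counted by the authors with Cell Ranger 3.1.0 on mm10 and filtered in Seurat, and the deposited values are raw UMI counts of 18695 genes in 8969 cells. The methods state filters of at least 5000 UMIs and under 5% mitochondrial reads, yet 44 to 180 cells per library are at 5% or more in the deposited counts. The labels and the methods name one version of the 10x kit and the series design another. The annotation release is not stated in these sources. Deposited counts and the deposited table of cells were the only measurements used, and all 4 libraries were used, each with its group from the labels.

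Counts were summed by library and cell type and divided by all UMIs of those cells (CPM). Intervals of levels are exact Poisson, of shares exact binomial and of ratios exact conditional binomial, and differences of ratios used the delta method, all at 95%. They cover counting error only. With 1 library per genotype and sort no test was made. Floors used 3 counts, ratios 20 UMIs over both libraries, and calls 2-fold. Cells holding both of 2 genes were counted after cells were thinned to 5000 UMIs. Clusters came from scanpy 1.11.5 and leidenalg 0.10.2 (2000 variable genes without Hox and TALE genes, 30 components, 30 neighbours, resolution 0.8) and were named by marker lists. The share of GMP-sorted cells that separates GMP-like from mature clusters was set after the clusters were seen. Doublets were not removed in the main values. The highest 5% of Scrublet scores were left out as an alternative. TMM factors from edgeR 4.0.16 were another alternative. The ratio script was tested on simulated data. Python 3.11.15, scipy 1.17.1, pandas 2.3.3 and R 4.3.3 were used.

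The members and all gene lists were chosen with earlier results of these data known. Genes of a list were named when past 1.5-fold the same way in both sorts, or when among those with most UMIs, and *Phc1*, *Mecom* and *Id2* were named after their values were seen. A result that this rule would name is not reported here. The 5 genes of most similar profile were taken among those reaching 10 CPM.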

Additional observations from a re-analysis of the deposited data

Results flagged for a closer look

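The *Meis1* ratio of *Tet2* KO over WT had opposite directions in the 2 sorts. In HSPC-like cells it was -0.97 on the log2 scale in the GMP sort and 0.27 in the Lin-/CD11b+ sort, and over all cells it was -0.79 and 0.53. HSPC-like cells were 13.7% of the WT and 9.64% of the *Tet2* KO GMP library. Of the WT and *Tet2* KO Lin-/CD11b+ libraries they were 12.7% and 19.0%. They held 447 of the 646 *Meis1* UMIs of the latter. The part of cell make-up in the values over all cells was not tested. Each sort had 1 library per genotype, so the difference between the sorts was not tested. Groups of 1 library are too small for a search for outlying samples.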

How the results depend on the processing

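Among 9 ratios of *Tet2* KO over WT, 97 of 99 alternative values had the sign of the value reported, with 33 of 33 for *Hoxa7*, 33 of 33 for *Hoxa9* and 31 of 33 for *Meis1*. In mono-biased cells the Lin-/CD11b+ sort in place of the GMP sort gave -1.05 for *Hoxa7*, -2.45 for *Hoxa9* and 0.56 for *Meis1*. In neutro-biased cells *Hoxa7* was -1.63 in that sort and -1.69 at a clustering resolution of 1.2. In HSPC-like cells the GMP sort in place of the Lin-/CD11b+ sort gave -0.71 for *Hoxa7*, -1.14 for *Hoxa9* and -0.97 for *Meis1*, the last with the sign turned. Cells with *Hlf* or *Procr* gave -0.66 for *Hoxa7* and 0.54 for *Meis1* there, and -0.85 for *Hoxa7* when the gates were applied to thinned cells, an alternative chosen after seeing the data. For HSPC-like over mono-biased cells of the WT Lin-/CD11b+ library, gates gave 0.87 for *Hoxa7* and 3.0 for *Meis1*, with 137 mono-biased GMP-like cells among the 941 of the *Ly86* gate, and thinning gave 2.46 for *Hoxa9*. Over neutro-biased cells thinning gave 1.83 for *Hoxa7*, and in the *Tet2* KO GMP library gates turned its sign, at -0.087. Of the 111 *Hlf* or *Procr* cells of that library 21 were HSPC-like by cluster. With no filter on low counts and CPM + 1, genes 2-fold or more lower and higher in the GMP sort numbered 72 and 74 in mono-biased cells, against 139 and 157, and 44 and 49 in neutro-biased cells, against 154 and 167. For all these changes the cause was not tested. No paired analysis was possible because each genotype had 1 library per sort and no test was made, and for the same reason no replicate could be left out. Depth limits *Hoxa5* and *Hoxa10* most, with 153 and 71 UMIs in all libraries.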
